A study of Mus musculus with 119 samples.

Results

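Bone marrow-derived macrophages (BMDMs) of mice with the genotype Nfkb1[SS/AA] were sequenced without stimulation and after LPS for 1 h, and the difference between these states is the LPS response described here. The 12 libraries, 6 untreated and 6 at 1 h, were picked from the 119 libraries of the series by their labelled genotype, treatment and time, and no measured value entered the choice. Another 6 Nfkb1[SS/AA] libraries, taken after 0.5 h of LPS, were used to place the 1 h values in time. The 6 untreated and 6 LPS 1 h libraries of WT BMDMs, and the same numbers of Map3k8[D270A] BMDMs, served for comparison.

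All of these groups were of the strain C57BL/6(NIMR), received no inhibitor and, where stimulated, were given LPS at 100 ng/ml. LPS, lipopolysaccharide of Gram-negative bacteria, is the ligand of Toll-like receptor 4 (TLR4). The labels give no age of the mice and do not say whether replicates came from separate animals. The methods of the study call the libraries biological replicates. Unless stated, the SE and limma p-values below rest on a spread pooled over all groups of the series. They can therefore be too small where the Nfkb1[SS/AA] libraries spread widely. Ifit1, for example, had SDs of 0.76 untreated and 0.69 at 1 h, with an SE of 0.22 for the difference. The WT and Map3k8[D270A] libraries carry the name of another experiment than the Nfkb1[SS/AA] libraries. Differences between these genotypes therefore cannot be told apart from differences between the experiments, whereas the LPS response itself lies within a single genotype and a single experiment.

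Nfkb1 encodes p105, the precursor of the NF-kB subunit p50 and an IkB-like inhibitor that also holds the kinase TPL-2, the product of Map3k8. In cells given LPS, the IKK complex phosphorylates p105, p105 is degraded by the proteasome, and the TPL-2 that is set free phosphorylates the MKK1/2 kinases, which activate ERK. In the SS/AA mutant the serines of p105 that IKK phosphorylates are replaced by alanine, which blocks this release of TPL-2, and Map3k8[D270A] encodes a TPL-2 without kinase activity. NF-kB is also released by the degradation of other inhibitors, chiefly IkB-alpha, and TLR4 further signals through p38, JNK and IRF3. The comparison asks which mRNAs change within 1 h of LPS when IKK cannot phosphorylate p105 at these serines.

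Promoter windows are shown for 6 genes on which the results turn, namely 3 induced chemokine and IkB genes with kappaB matches, the interferon-linked chemokine gene Cxcl10, and Ifnb1 and Csf2, whose responses lay farthest above and below those of WT cells. The windows run from 250 bases before to 50 bases after the RefSeq start of the gene (GRCm38.p6, the build of the files, mm10), 300 bases in all, written 5′ to 3′ on the strand of the gene. Capitals mark matches, on either strand, to the 10-letter kappaB core, to which NF-kB binds, in Cxcl1, Cxcl2 and Nfkbia, and to the AP-1 site (TGANTCA) and the 10-letter core of the interferon response element, to which IRF factors bind, in Cxcl10. The windows are chr5:90890995-90891294 (plus strand) for Cxcl1, chr5:90903649-90903948 (plus) for Cxcl2, chr12:55492598-55492897 (minus) for Nfkbia, chr5:92348840-92349139 (minus) for Cxcl10, chr4:88522745-88523044 (minus) for Ifnb1 and chr11:54249850-54250149 (minus) for Csf2.
Cxcl1: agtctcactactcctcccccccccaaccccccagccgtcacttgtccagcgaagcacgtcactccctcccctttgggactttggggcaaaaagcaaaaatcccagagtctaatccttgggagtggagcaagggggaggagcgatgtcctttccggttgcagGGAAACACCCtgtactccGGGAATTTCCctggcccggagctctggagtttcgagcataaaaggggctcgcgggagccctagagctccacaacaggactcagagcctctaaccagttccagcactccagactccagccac
Cxcl2: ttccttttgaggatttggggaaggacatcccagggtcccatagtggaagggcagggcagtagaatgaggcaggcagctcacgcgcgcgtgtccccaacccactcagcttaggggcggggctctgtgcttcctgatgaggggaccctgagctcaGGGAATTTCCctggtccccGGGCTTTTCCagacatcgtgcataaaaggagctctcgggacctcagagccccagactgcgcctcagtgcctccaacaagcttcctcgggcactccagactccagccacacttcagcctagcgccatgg
Nfkbia: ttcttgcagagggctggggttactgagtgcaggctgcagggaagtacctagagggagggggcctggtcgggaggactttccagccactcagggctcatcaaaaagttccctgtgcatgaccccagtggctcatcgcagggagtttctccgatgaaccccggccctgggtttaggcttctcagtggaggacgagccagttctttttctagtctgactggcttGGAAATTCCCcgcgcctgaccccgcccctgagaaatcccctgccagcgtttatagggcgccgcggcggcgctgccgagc
Cxcl10: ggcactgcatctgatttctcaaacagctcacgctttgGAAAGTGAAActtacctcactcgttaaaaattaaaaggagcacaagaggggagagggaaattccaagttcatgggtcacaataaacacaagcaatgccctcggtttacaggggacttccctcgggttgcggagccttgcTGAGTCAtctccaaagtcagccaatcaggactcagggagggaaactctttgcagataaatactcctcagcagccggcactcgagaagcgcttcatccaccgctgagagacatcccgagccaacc
Ifnb1: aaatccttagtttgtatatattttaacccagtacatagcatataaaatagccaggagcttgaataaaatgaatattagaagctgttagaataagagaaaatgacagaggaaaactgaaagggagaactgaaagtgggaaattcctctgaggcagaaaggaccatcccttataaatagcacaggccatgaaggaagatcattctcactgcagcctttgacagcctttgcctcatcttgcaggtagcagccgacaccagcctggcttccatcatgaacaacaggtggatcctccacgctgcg
Csf2: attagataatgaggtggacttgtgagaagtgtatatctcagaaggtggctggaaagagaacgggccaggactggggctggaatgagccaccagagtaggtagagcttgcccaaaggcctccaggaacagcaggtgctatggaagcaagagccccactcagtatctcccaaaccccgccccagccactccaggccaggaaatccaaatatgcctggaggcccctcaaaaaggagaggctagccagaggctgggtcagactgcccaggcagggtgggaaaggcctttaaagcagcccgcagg
The kappaB matches began 89 and 71 bases before the start of Cxcl1, 97 and 78 bases before that of Cxcl2, and 29 bases before that of Nfkbia. In Cxcl10 the AP-1 match began 74 bases and the interferon response element match 213 bases before the start. None of the 5 motifs searched (these 3, the CArG box and the cAMP response element TGACGTCA) matched in the windows of Ifnb1 or Csf2. This says only that these letters are not in these windows. The study describes Ifnb1 as controlled jointly by NF-kB, IRF factors and AP-1, and other forms of their sites were not searched for.

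Each value below is the deposited, normalized log2 value of a gene in a library, and a difference is on that log2 scale. Neither the labels nor the file headers say which transformation made the values, so the base of the scale, and hence the fold a difference stands for, could not be checked. A gene was called when its adjusted p (limma, Benjamini-Hochberg) was below 0.05 and its difference was at least 1 in size, which is 2-fold on a log2 scale, and in counts over a list "rose" and "fell" mean called higher and called lower. Of 11971 genes tested, 429 (3.58%) were called at 1 h. Of these, 313 (2.61%) were called higher and 116 (0.969%) lower at 1 h of LPS than in untreated Nfkb1[SS/AA] cells. By the adjusted p alone, 2695 genes (22.5%) were higher and 2616 (21.9%) lower. The median difference over all genes tested was 0.0094. The larger differences lay on the induced side, with 99 higher genes and 3 lower genes at 2 or more in size. In 305 of the 313 higher genes and in all 116 lower genes, no library at 1 h overlapped an untreated one. Over all genes tested, 1254 (10.5%) were separated in this way with higher and 1329 (11.1%) with lower values.

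The cells were checked against markers of macrophages and of other cells. All 8 macrophage markers (Csf1r, Adgre1, Itgam, Cd68, Lyz2, Fcgr1, Mertk and Cd14) were above the filter level, with a summed log2 level of 18.71 to 19.11 without LPS and 18.88 to 19.23 at 1 h. The 9 neutrophil markers summed to 6.89 to 7.48 and 7.31 to 8.37. The medians of 5 of them, Ly6g, Elane, Mpo, Camp and Retnlg, were below the filter level. Ly6g, Elane and Mpo were at 1.0 or less in every library. S100a8, S100a9, Ltf and Ngp were above the filter level in every library, at 3.92 (Ltf) to 7.09 (S100a9). All 6 neutrophil markers tested had higher means at 1 h, by 0.08 (Retnlg) to 0.69 (S100a9), and S100a9 alone passed the adjusted p (limma; 0.0424). The 4 dendritic cell markers summed to 4.48 to 4.75 and 5.03 to 5.47. Xcr1 was at 3.04 to 3.74 and 4.17 to 4.96, 1.11 higher at 1 h. The medians of Flt3, Zbtb46 and Siglech were below the filter level. The part of either cell type in the results was not tested. T cell, B cell, fibroblast, mast cell and erythroid markers overlapped between the groups. Of these, Cd79b (B cell, 5.64 to 6.43) and Kit (mast cell, 4.37 to 5.55) were above the filter level in every library. The mRNA of Nfkb1 does not check the genotype, since the mutation changes codons and not the gene's dose.

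Among the 1 h libraries, replicate 2 stood apart. The median distance of its genes from the group mean was 0.160, against 0.0583 to 0.0959 in the other 5, and its deviations followed transcript length (Spearman rho = -0.63 across 11579 genes, which are not independent replicates), with longer transcripts lower. Without it, 326 genes were called higher and 109 lower. Among the genes tested for it by Dixon's test, its values stood below those of the other 5 for Cflar, Cyld (10.21 against 10.47 to 10.60), Klf6 (14.91 against 15.21 to 15.30), Rel, Tnfaip3 (14.94 against 15.14 to 15.24) and Zc3h12c.

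The largest rise at 1 h was that of Ifnb1 (chr4:88522025-88522794), which encodes the type I interferon IFN-beta. Its values were 4.84 to 4.99 (median 4.94) in the 6 untreated libraries and 10.44 to 12.22 (median 11.21) at 1 h, a difference of 6.28 ± 0.25 (SE; adjusted p = 1.82e-42). Every stimulated library was above every untreated one, and the stimulated libraries spread more widely. The neutrophil-attracting chemokine gene Cxcl2 (chr5:90903899-90905938) followed, at 9.80 to 10.09 (median 9.90) without LPS and 14.98 to 15.33 (median 15.14) at 1 h, a difference of 5.22 ± 0.084 (adjusted p = 9.67e-76). Its neighbour Cxcl1 (chr5:90891245-90893121) was at 8.14 to 8.22 (median 8.16) and 12.51 to 12.96 (median 12.84), a difference of 4.63 ± 0.11 (adjusted p = 1.07e-61). For both chemokines the groups were far apart and tight within.

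**Figure D1:**
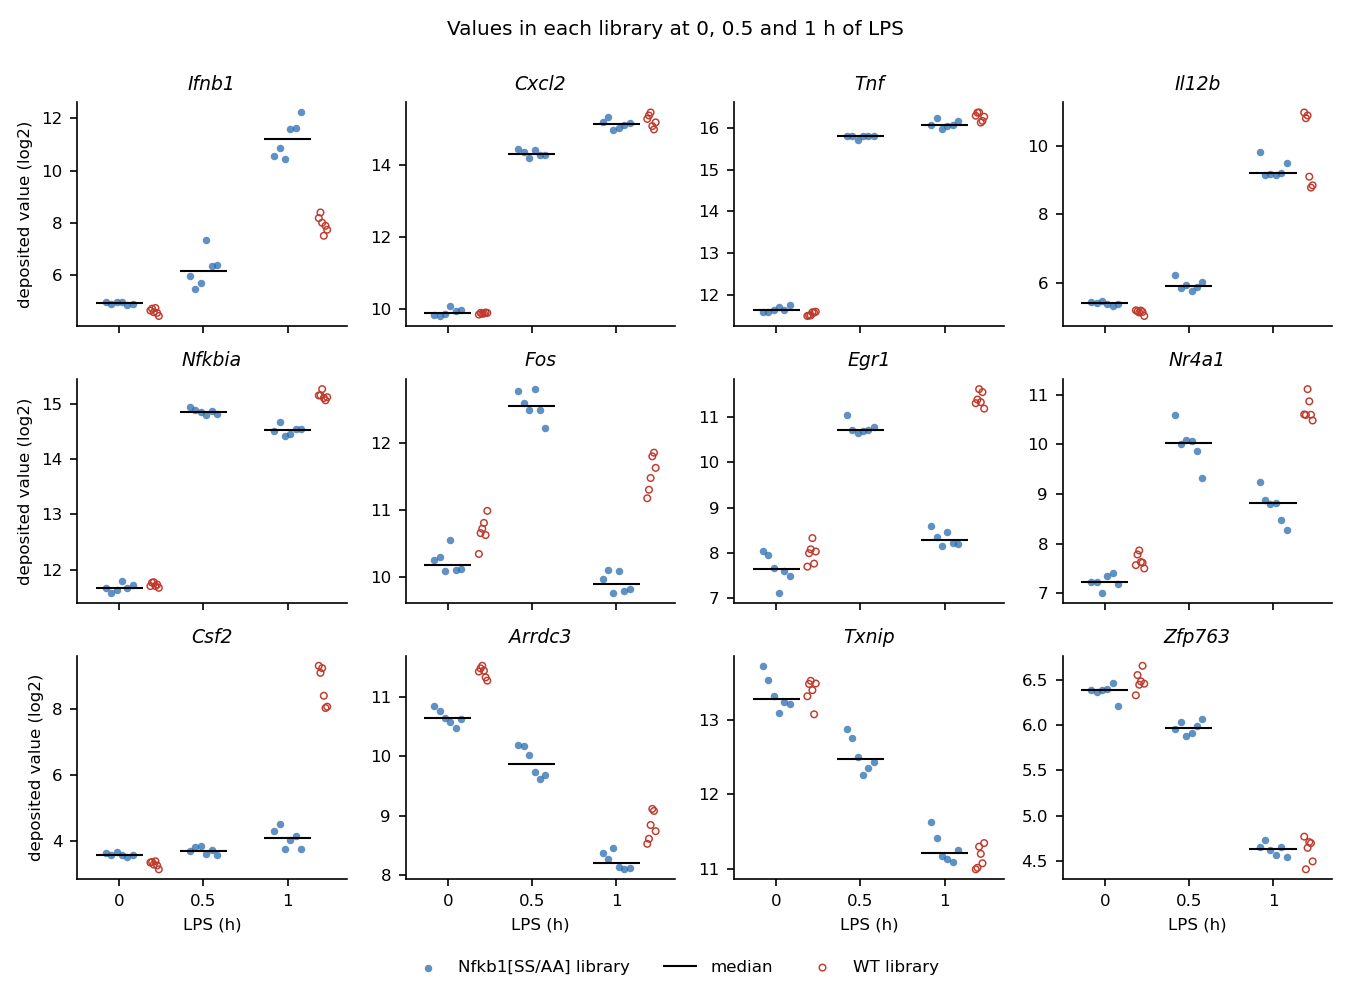
Deposited log2 values (vertical axes) of 12 genes in each Nfkb1[SS/AA] library at 0, 0.5 and 1 h of LPS (horizontal axes; blue points, with a black bar at the median) and in each WT library at 0 and 1 h (red open circles). Ifnb1, Cxcl2, Tnf, Il12b and Nfkbia are higher at 1 h in all 6 mutant libraries, Fos is back near its untreated values after higher values at 0.5 h, Csf2 lies at 3.76 to 4.51 at 1 h while the WT libraries lie at 8.03 to 9.31, and Arrdc3, Txnip and Zfp763 are lower in every 1 h library.

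Of the 22 cytokine genes tested, 16 rose and none fell, against 2.61% and 0.969% of all genes tested, and their median difference was 1.76, against 0.0094 over all genes. The 1 h counts of the other lists are to be read against the same shares. Il1b, which encodes interleukin-1 beta, was at 8.75 to 8.87 (median 8.83) in untreated libraries and at 13.56 to 14.13 (median 13.77) at 1 h, a difference of 4.98 ± 0.14 (adjusted p = 8.25e-56). Il1a, which encodes interleukin-1 alpha, was at 6.46 to 6.59 (median 6.51) and 10.76 to 11.42 (median 10.99), a difference of 4.51 ± 0.15 (adjusted p = 1.57e-48). Tnf (chr17:35199367-35202007), the early inflammatory cytokine, was at 11.58 to 11.74 (median 11.63) and 15.97 to 16.23 (median 16.06), a difference of 4.44 ± 0.081 (adjusted p = 2.07e-71). No libraries of the groups overlapped for these 3 cytokines. Tnfsf9, the ligand of the costimulatory receptor 4-1BB, was at 9.20 to 9.36 (median 9.25) and 13.26 to 13.99 (median 13.66), a difference of 4.40 ± 0.11 (adjusted p = 7.41e-60).

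Further cytokine genes were called higher with smaller differences. Il12b, the p40 subunit of IL-12 and IL-23, was at 5.34 to 5.48 (median 5.41) without LPS and 9.14 to 9.81 (median 9.19) at 1 h, a difference of 3.91 ± 0.22 (adjusted p = 4.63e-31). Il10, which encodes an anti-inflammatory cytokine, was at 6.07 to 6.45 (median 6.20) and 8.06 to 9.07 (median 8.46), a difference of 2.29 ± 0.2 (adjusted p = 4.36e-19). Neither pair of groups overlapped. Edn1, which encodes endothelin-1, rose by 2.56, the macrophage growth factor gene Csf1 by 2.32 and Il27 by 1.73. The IL-6 family members Osm, Lif, Clcf1 and Il6 rose by 1.82, 1.80, 1.66 and 1.63. Il23a, the p19 subunit of IL-23, rose by 1.40 and Il1rn, the IL-1 receptor antagonist, by 1.19. The members that were not called were Inhba, Hbegf, Csf2, Il15, Vegfa and Il18, with differences of 0.70, 0.64, 0.49, 0.43, 0.36 and 0.15, and Il12a and Csf3 were below the filter.

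Of the 19 chemokine genes, 11 rose, none fell, and the median difference was 2.05. Beyond Cxcl1 and Cxcl2, the interferon-inducible Cxcl10 was at 9.59 to 11.22 (median 10.04) without LPS and 13.80 to 14.60 (median 14.04) at 1 h, a difference of 3.84 ± 0.19 (adjusted p = 7.01e-35). Its untreated libraries were spread widely and still lay below every stimulated one. The CC chemokine genes Ccl4, Ccl3, Ccl7, Ccl2, Ccl12 and Ccl5, which attract monocytes and lymphocytes, rose by 3.45, 2.99, 2.62, 2.52, 2.31 and 2.05. The annotated ranges of Ccl3 and Ccl4 overlap, and reads of similar members of these families may have been split in counting. Ccl5 was at 8.11 to 10.70 (median 8.51) without LPS and 10.68 to 11.36 (median 10.88) at 1 h, and its groups overlapped. The CXC chemokine genes Cxcl3 and Cxcl11 rose by 2.37 and 1.29. Ccl9, Cxcl16 and Ccl22 differed by 0.97, 0.83 and 0.57 without being called, and Cxcl9, Cx3cl1, Ccl6, Cxcl14 and Ccl17 by 0.35, 0.16, 0.09, 0.05 and 0.01 without passing the adjusted p.

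Of 22 genes of NF-kB and its feedback loop, 15 were called higher, none lower, and the median was 1.65. Nfkbia (chr12:55489409-55492647), which encodes IkB-alpha and is induced by the NF-kB it restrains, was at 11.58 to 11.79 (median 11.66) without LPS and 14.42 to 14.67 (median 14.52) at 1 h, a difference of 2.85 ± 0.050 (adjusted p = 9.56e-73). Nfkbiz (chr16:55811375-55838954), which encodes the nuclear IkB-zeta, was at 10.47 to 10.63 (median 10.50) and 14.67 to 15.00 (median 14.97), a difference of 4.39 ± 0.081 (adjusted p = 4.77e-71). Tnfaip3 (chr10:19000910-19015410), the gene of the deubiquitinase A20, was at 11.63 to 11.70 (median 11.68) and 14.94 to 15.24 (median 15.18), a difference of 3.48 ± 0.093 (adjusted p = 9.4e-57). The groups were wide apart for all 3 genes. The further IkB family genes Nfkbie, Nfkbid, Nfkbib and Bcl3 rose by 2.53, 2.15, 1.71 and 1.61.

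The genes of the NF-kB subunits were more uneven. Rel, Relb and Nfkb2 rose by 1.99, 1.70 and 1.38, while Rela, at 0.99, lay just short of the threshold. Rela passed it when 1 h replicate 3 (1.03) or 5 (1.003), or untreated replicate 1 or 2 (1.00), was left out. Nfkb1, the gene that carries the mutation, was at 11.29 to 11.52 (median 11.32) without LPS and 11.77 to 12.08 (median 11.88) at 1 h, a difference of 0.57 ± 0.053 (adjusted p = 6.75e-17) that was not called although the groups did not overlap. Rel was at 10.09 in replicate 2 at 1 h and at 11.16 to 11.33 in the other 5. Traf1, Tnip3, Zc3h12a, Birc3 and Tnip1, whose products act on receptor signalling or on cytokine mRNA, rose by 2.34, 2.17, 2.27, 1.51 and 1.31, and Otud1, Traf2, Tnip2, Birc2 and Cyld, whose products act on ubiquitin signalling, differed by 0.94, 0.34, 0.25, 0.13 and 0.05 and were not called.

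**Figure D2:**
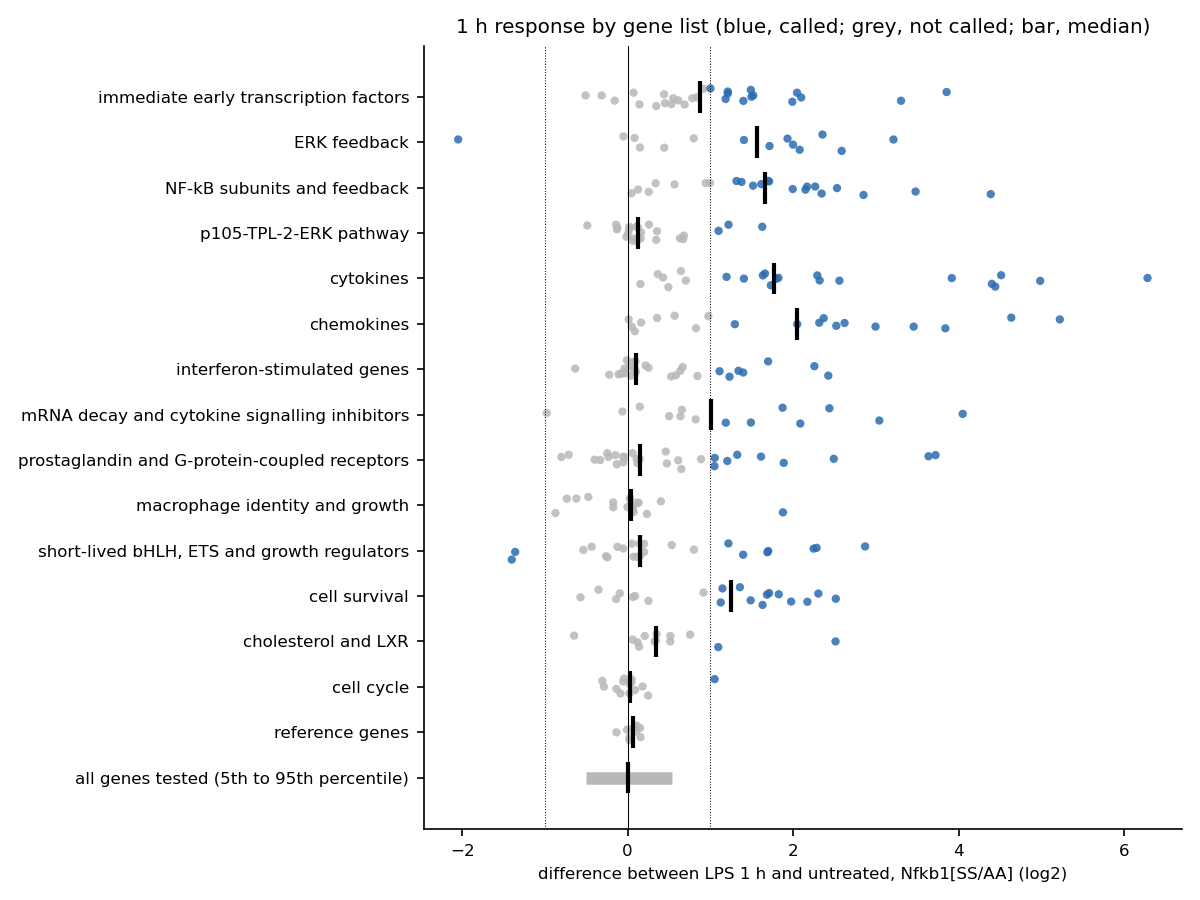
Difference between LPS 1 h and untreated Nfkb1[SS/AA] libraries on the log2 scale (horizontal axis) for each tested member of 15 gene lists (rows); blue points were called, grey points were not, bars mark the list medians, dotted lines mark differences of -1 and 1, and the bottom row spans the 5th to 95th percentile of all genes tested. The medians of the chemokine, cytokine and NF-kB lists lie at 2.05, 1.76 and 1.65, those of the reference, cell cycle and macrophage identity lists at 0.06, 0.02 and 0.04.

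Of 25 genes of the signalling chain from TLR4 to ERK, 3 were called higher, against 2.61% of all genes, and none lower, and the median was 0.12. Cd14, the gene of the LPS co-receptor, was at 13.51 to 13.84 (median 13.65) without LPS and 15.11 to 15.52 (median 15.26) at 1 h, a difference of 1.63 ± 0.086 (adjusted p = 1.3e-32). The adaptor gene Ticam1 (TRIF) rose by 1.22 and the kinase gene Irak2 by 1.10. Map3k8, the TPL-2 gene, was at 8.89 to 9.15 (median 8.97) without LPS and 9.49 to 9.76 (median 9.67) at 1 h, a difference of 0.68 ± 0.064 (adjusted p = 1.28e-16) that was not called, and its groups did not overlap. Map2k1 and Map2k2, which encode MKK1/2, differed by 0.06 and 0.08, and Mapk3, which encodes ERK1, by 0.01, with Mapk3 at -0.19 under quantile normalization. Elk1 and Elk4, the ternary complex factor genes that a further genotype of the series lacks, differed by 0.16 and -0.13, and Tlr4 by -0.49.

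Of 28 immediate early transcription factor genes, many of which ERK induces, 13 were called higher at 1 h, against 2.61% of all genes, none lower, and the median was 0.87. At 0.5 h 15 of the same 28 had been called higher, against 0.727% of all genes, with a median of 1.13. Csrnp1 and Maff, which encode nuclear factors, rose by 3.85 and 3.30 at 1 h. Phlda1, Junb, Egr2, Nr4a1, Ier3, Klf6 and Btg2 rose by 2.10, 2.05, 1.99, 1.52, 1.49, 1.49 and 1.40. Atf3, Egr3 and Ier2 were called at 1.21, 1.21 and 1.18. Myc was called at 1.00 and lost its call when 1 h replicate 1 or 2, or untreated replicate 2, 3 or 6, was left out (0.98 to 1.00).

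Other members of the list, among them Fos and Egr1, were not called at 1 h. Fos, a subunit of AP-1, was at 10.09 to 10.55 (median 10.18) without LPS and 9.76 to 10.11 (median 9.89) at 1 h, a difference of -0.31 ± 0.11 (adjusted p = 0.0113), and its groups overlapped. Egr1, a zinc finger factor, was at 7.13 to 8.04 (median 7.64) and 8.16 to 8.59 (median 8.29), a difference of 0.69 ± 0.14 (adjusted p = 2.97e-05), and its groups did not overlap. The others with an adjusted p below 0.05 included Nr4a3, Fosl2, Fosl1, Jun and Klf10, at 0.91, 0.83, 0.78, 0.45 and -0.51. Fosb and Nr4a2 differed by 0.14 and 0.07 (adjusted p = 0.342 and 0.745), and Egr4 was below the filter.

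Inhibitors of ERK and other MAP kinases were mostly higher, with 8 of 14 called higher, 1 lower and a median of 1.56. Errfi1, an inhibitor of the EGF receptor, was at 8.50 to 8.72 (median 8.60) without LPS and 11.68 to 12.11 (median 11.78) at 1 h, a difference of 3.21 ± 0.14 (adjusted p = 2.11e-39). The MAP kinase phosphatase genes Dusp1, Dusp8, Dusp5, Dusp4, Dusp2 and Dusp16 rose by 2.58, 2.35, 2.08, 2.00, 1.93 and 1.40, and Spry1, a Sprouty inhibitor of the pathway, by 1.71. Dusp6 (chr10:99263231-99267489), the gene of an ERK-selective phosphatase, was at 9.50 to 9.68 (median 9.58) and 7.37 to 7.70 (median 7.51), a difference of -2.05 ± 0.085 (adjusted p = 1.84e-40). It fell in all 6 libraries while the other called members of the list rose. Spred1, Dusp10, Spred2, Spry2 and Spred3 differed by 0.80, 0.44, 0.15, 0.08 and -0.05 and were not called, and Spry4 was below the filter.

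Of 14 genes for mRNA decay factors and inhibitors of cytokine signalling, 7 were called higher, none lower, and the median was 1.00. By the adjusted p alone 11 were higher and 1 lower. Socs3, which blocks signalling of the IL-6 receptor family, was at 8.72 to 8.83 (median 8.79) without LPS and 12.58 to 13.03 (median 12.85) at 1 h, a difference of 4.05 ± 0.094 (adjusted p = 4.92e-62). Zc3h12c, of the Regnase family of ribonucleases, rose by 3.04 ± 0.090, with 11.34 in replicate 2 at 1 h and 12.26 to 12.40 in the other 5. The kinase gene Pim1, the SOCS family gene Cish and the pseudokinase gene Trib1 rose by 2.44, 2.09 and 1.49. Among the Zfp36 family, whose products bind AU-rich elements of cytokine mRNAs, Zfp36 and Zfp36l1 rose by 1.87 and 1.19. Zfp36l2 was at 12.36 to 12.57 (median 12.51) and 11.32 to 11.76 (median 11.49), a difference of -0.98 that lay just short of the threshold and passed it under quantile normalization (-1.13). Socs1 differed by 0.66 and was not called.

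The receptor and prostaglandin list had 9 of 29 genes called higher, none lower and a median of 0.14. Ccrl2, an atypical chemoattractant receptor, was at 9.36 to 9.73 (median 9.45) without LPS and 13.15 to 13.42 (median 13.18) at 1 h, a difference of 3.72 ± 0.078 (adjusted p = 8.63e-66). Ptgs2, the inducible cyclooxygenase gene, was at 7.10 to 7.34 (median 7.24) and 10.17 to 11.23 (median 10.97), a difference of 3.63 ± 0.16 (adjusted p = 5.8e-38). Neither pair of groups overlapped. Gpr84 and Hcar2, receptors for fatty acids and for ketone bodies, rose by 2.49 and 1.89, the nucleotide receptor gene P2ry2 by 1.61 and the prostaglandin E2 receptor gene Ptger4 by 1.32. The adenosine receptor genes Adora2b and Adora2a rose by 1.20 and 1.05 and Rgs1, a regulator of G-protein signalling, by 1.05. C5ar1, Rgs2 and Cxcr4 differed by 0.89, -0.71 and -0.80 and were not called.

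Of 20 genes of cell survival and stress, 12 rose, none fell and the median was 1.25. The antiapoptotic Bcl2a1d, Bcl2a1a and Bcl2a1b rose by 2.51, 2.30 and 1.71. Reads of these near-identical copies may have been split, which was not tested, and their single values are uncertain. Cflar, which encodes the caspase-8 inhibitor cFLIP, rose by 2.17, with 13.63 in replicate 2 at 1 h and 14.17 to 14.26 in the other 5. The proapoptotic Bcl2l11 and Pmaip1 rose by 1.68 and 1.14, so members of both kinds were among those called. The kinase genes Sgk1, Ripk2 and Plk2 rose by 1.97, 1.83 and 1.36, and the growth arrest genes Gadd45b, Cdkn1a and Gadd45a by 1.63, 1.49 and 1.12. Mcl1, Bcl2 and Bbc3, which encodes PUMA, differed by 0.91, 0.06 and -0.57 and were not called.

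Interferon-stimulated genes had 7 of 29 called higher, against 2.61% of all genes, none lower and a median of 0.10. Irf1, a transcription factor gene that NF-kB also induces, was at 11.14 to 11.66 (median 11.29) without LPS and 13.66 to 13.90 (median 13.79) at 1 h, a difference of 2.42 ± 0.092 (adjusted p = 5.5e-44). Gbp5, a guanylate-binding protein gene, rose by 2.26 and Oasl1 by 1.70, and the groups of these 3 genes did not overlap. Ifit1, Gbp3, Rsad2 and Isg15, which encode antiviral proteins, were called at 1.40, 1.34, 1.23 and 1.11 with overlapping groups. Ifit1, for example, was at 10.24 to 12.01 (median 10.71) and 11.77 to 13.42 (median 12.15). The call of Isg15 was lost when untreated replicate 1, 2 or 3 was left out (0.96 to 1.00). Irf7 and Mx1, later targets of type I interferon, differed by -0.03 and 0.07 without passing the adjusted p, and Stat2 by -0.63 without being called.

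Other genes that rose were Irg1, which makes itaconate, by 4.42 ± 0.17 (adjusted p = 4.96e-43), Gem, a small GTPase gene, by 3.84, the cAMP phosphodiesterase gene Pde4b by 3.32, the inflammasome sensor gene Nlrp3 by 3.07, Tlr2 by 2.81, the adhesion molecule gene Icam1 by 2.76 and the costimulatory receptor gene Cd40 by 2.34. Among 24 short-lived growth regulator genes, 7 rose, 2 fell and the median was 0.15. Kdm6b, a histone H3K27 demethylase gene, rose by 2.87, Id3 and Id2, inhibitors of bHLH factors, by 2.28 and 1.70, and Ets2 by 2.25, while the homeobox gene Hhex and the glucocorticoid-induced Tsc22d3 fell by 1.40 and 1.36. Of the 13 cholesterol genes 2 rose, Ch25h, the cholesterol 25-hydroxylase gene, by 2.51 and Insig1 by 1.09, and the median was 0.34. In the 14 cell cycle genes Mki67 was called at 1.05 and the median was 0.02; the call of Mki67 was lost without 1 h replicate 3 (0.98), untreated replicate 1 (0.97) or untreated replicate 2 (0.99).

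The identity genes of macrophages gave 1 of 19 called, Tfec, a MiT family factor gene, at 1.88, where 3.58% of all genes were called, and a median of 0.04. Cebpa, which encodes a transcription factor of the lineage, differed by -0.87 (adjusted p = 1.68e-17) and was not called. Of 10 reference genes none was called, and their differences ran from -0.14 (Tbp) to 0.16 (Ywhaz). Under quantile normalization Ywhaz and Rplp0 turned to -0.08 and -0.20.

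The 116 genes that fell did so by less than the induced genes rose, with a median of -1.20 against 1.60. Arrdc3 (chr13:80883384-80896042), the gene of an alpha-arrestin, was at 10.48 to 10.85 (median 10.64) without LPS and 8.10 to 8.46 (median 8.21) at 1 h, a difference of -2.41 ± 0.11 (adjusted p = 1.35e-36). Txnip (chr3:96557957-96561857), which encodes the alpha-arrestin that binds thioredoxin, was at 13.10 to 13.72 (median 13.28) and 11.09 to 11.63 (median 11.21), a difference of -2.08 ± 0.096 (adjusted p = 4.09e-37). With Dusp6 these were the 3 genes that were lower by 2 or more. Bmf, a proapoptotic BH3-only gene, fell by 1.85, Ier5l by 1.83, Cnr2, the cannabinoid receptor 2 gene, by 1.56, the Polycomb gene Cbx8 by 1.55, Thbd (thrombomodulin) by 1.50 and the ubiquitin ligase gene Fbxo32 by 1.39. Less RNA per cell and fewer cells with the RNA cannot be told apart in bulk samples.

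Genes with Zfp symbols, most of which encode zinc finger proteins, made up 48 of the 116 lower genes. Of 314 such genes tested, 48 were called lower and 5 higher, against 0.969% and 2.61% of all genes, and the median was -0.47 against 0.0094 over all genes. Zfp763 (chr17:33016864-33033381) was at 6.21 to 6.46 (median 6.39) without LPS and 4.54 to 4.73 (median 4.63) at 1 h, a difference of -1.75 ± 0.070 (adjusted p = 8.13e-42). Zfp273, Zfp157, Zfp60, Zfp128 and Zfp760 fell by 1.68, 1.67, 1.64, 1.62 and 1.59, and the 1 h libraries lay below every untreated library in each. The 5 higher genes were Zfp131, Zfp36, Zfp263, Zfp719 and Zfp36l1, at 1.20, 1.87, 1.29, 1.31 and 1.19, of which Zfp36 and Zfp36l1 encode the mRNA-binding proteins described above.

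The libraries taken at 0.5 h show how much of the 1 h response had come by then. At 0.5 h 88 genes (0.735%) were called. Of these, 87 (0.727%) were called higher and 1 (0.00835%) lower, the ribosomal protein pseudogene Rplp2-ps1, whose call was lost under quantile normalization (-0.99) and when 0.5 h replicate 3, 5 or 6 or any of untreated replicates 2 to 6 was left out (-0.91 to -0.995). Of the 313 genes higher at 1 h, 83 had been called at 0.5 h and 230 had not, and 102 were not past the adjusted p at 0.5 h. Between 0.5 and 1 h, 180 genes (1.50%) were called higher and 66 (0.551%) lower. Of the 313, 178 rose again over that interval and 6 fell, Ier2, Zfp36, Ier3, Nr4a1, Dusp2 and Btg2. The comparisons of 0.5 h and of 1 h share the untreated libraries, so their values are given side by side.

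Several genes had most of their 1 h difference by 0.5 h. Tnf was at 15.71 to 15.80 (median 15.79) at 0.5 h, 4.14 above untreated cells, and differed by a further 0.30 between 0.5 and 1 h. Cxcl2, Nfkbiz and Socs3 were 4.41, 3.74 and 3.48 higher at 0.5 h, with further differences of 0.81, 0.64 and 0.57. Nfkbia was 3.18 higher at 0.5 h and then differed by -0.34 between 0.5 and 1 h. Other genes had most of it still to come. Ifnb1 was at 5.49 to 7.35 (median 6.16) at 0.5 h, a difference of 1.28 ± 0.25 (adjusted p = 3.72e-05), and rose by a further 5.003 ± 0.25 (adjusted p = 3.27e-34). Irg1, Il12b and Cxcl10 rose by 3.57, 3.37 and 2.78 between 0.5 and 1 h, after differences of 0.85, 0.54 and 1.05 at 0.5 h. The 0.5 h call of Cxcl10 was lost without 0.5 h replicate 4 (0.83) or without untreated replicate 1, 2 or 3 (0.92 to 0.97), and with the compared groups alone (1.05, adjusted p = 0.0523).

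A smaller set of genes was higher at 0.5 h than at 1 h. Fos was at 12.22 to 12.80 (median 12.54) at 0.5 h, 2.33 ± 0.11 above untreated cells (adjusted p = 2.04e-36), and then fell by 2.64 (adjusted p = 9.42e-41). Egr1 was at 10.65 to 11.04 (median 10.71) at 0.5 h, 3.12 ± 0.14 higher (adjusted p = 2.96e-36), and then fell by 2.43 (adjusted p = 1.47e-28). Every 0.5 h library of Fos and Egr1 was above every untreated and every 1 h library. Fos, Egr1, Jun and Map3k8 were the 4 genes called higher at 0.5 h that were not called at 1 h, with Jun, which encodes an AP-1 subunit, at 1.55 and then 0.45, and Map3k8 at 1.13 and then 0.68. Nr4a1, an orphan nuclear receptor gene, was 2.75 above untreated cells at 0.5 h and 1.52 at 1 h. Btg2, Zfp36 and Dusp2 were 2.86, 3.08 and 3.18 higher at 0.5 h and 1.40, 1.87 and 1.93 at 1 h.

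**Figure D3:**
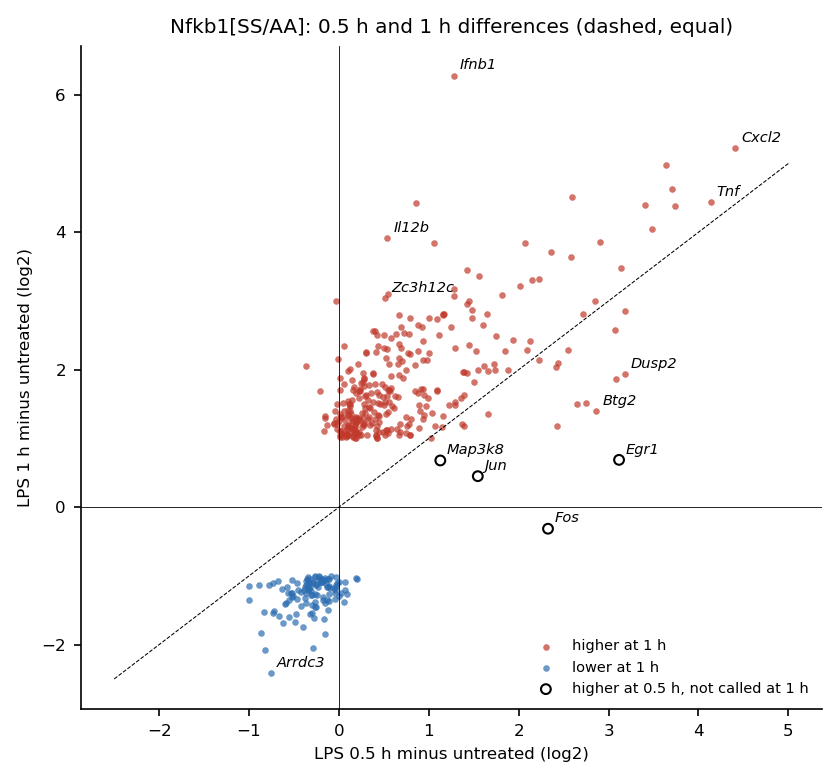
Difference from untreated Nfkb1[SS/AA] libraries at 0.5 h (horizontal axis) and at 1 h (vertical axis) of LPS, both on the log2 scale, for the genes called; red points were higher at 1 h, blue points lower, black open circles mark Egr1, Fos, Jun and Map3k8, which were called higher at 0.5 h only, and the dashed line marks equal differences. Ifnb1 (1.28 and 6.28) lies far above the line and Fos (2.33 and -0.31) far below it. None of the 116 blue points was called at 0.5 h, where Tsc22d3 (-0.998) lay just short of the threshold.

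None of the 116 genes lower at 1 h was called lower at 0.5 h. By the adjusted p alone 75 of them were lower there, as were 727 (6.07%) of all genes, with 1024 (8.55%) higher. Tsc22d3, at -0.998 at 0.5 h, passed the threshold there under quantile normalization (-1.07). It also did so without 0.5 h replicate 5 or 6 or untreated replicate 1 or 4 (-1.01 to -1.02). Arrdc3 was 0.76 lower at 0.5 h and fell by a further 1.65, Txnip by 1.25 after 0.83, and Dusp6 by 1.76 after 0.29. Map3k1, a MAP kinase kinase kinase gene, and Zfp74 were 0.20 and 0.19 higher at 0.5 h (adjusted p = 0.000275 and 0.0147) and 1.05 and 1.03 lower than untreated at 1 h.

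In WT cells, 380 genes were called higher and 112 lower at 1 h. Of the 313 genes higher in Nfkb1[SS/AA] cells, 278 were also called higher in WT cells, and of the 116 lower genes 88 were also lower there. Across the 429 genes called in the mutant, the responses of the 2 genotypes, which share no libraries, had a Pearson r of 0.94, and genes are not independent replicates. The median over the 313 genes, which were picked in the mutant, was 1.60 in the mutant and 1.84 in WT cells. The difference of the responses was tested in all 11971 genes, with 65 (0.543%) called, 58 (0.485%) lower and 7 (0.0585%) higher in the mutant than in WT. Of the 313 genes, 36 had a response called lower than in WT and 6 higher. None of the 116 lower genes had a called difference in limma's test, and 11 differed by the adjusted p alone.

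**Figure D4:**
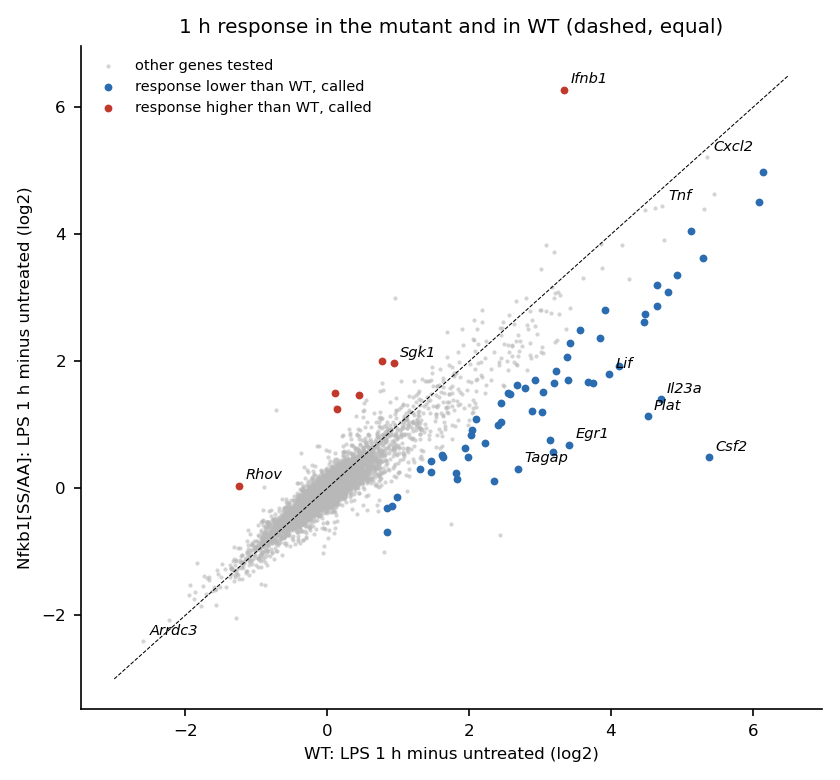
Difference between LPS 1 h and untreated libraries in WT cells (horizontal axis) and in Nfkb1[SS/AA] cells (vertical axis), both on the log2 scale, for all 11971 genes tested; blue points mark the 58 genes whose response was called lower in the mutant and red points the 7 called higher. Csf2 (5.39 in WT and 0.49 in the mutant) lies farthest below and Ifnb1 (3.34 and 6.28) farthest above equal responses.

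The response of Csf2 (chr11:54247270-54249899), which encodes the growth factor GM-CSF, differed most. It was at 3.53 to 3.66 (median 3.59) in untreated mutant cells and at 3.76 to 4.51 (median 4.10) at 1 h, a difference of 0.49 ± 0.16 (adjusted p = 0.00786). In WT cells it was at 3.15 to 3.39 (median 3.32) and at 8.03 to 9.31 (median 8.75), a difference of 5.39 ± 0.16. The responses differed by -4.90 ± 0.23 (adjusted p = 9.44e-35), and every stimulated WT library was above every mutant one. Csf2 at 1 h was at 9.10 to 9.31 in WT replicates 4 to 6 and at 8.03 to 8.40 in replicates 7 to 9, and against each of these sets alone the responses differed by -5.38 and -4.41.

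Next were Plat (chr8:22757722-22782848), the tissue-type plasminogen activator gene, with responses of 1.14 and 4.52 and a difference of -3.38 ± 0.17 (adjusted p = 8.32e-32), and Il23a (chr10:128296140-128298084), with 1.40 and 4.70 and a difference of -3.30 ± 0.23 (adjusted p = 5.18e-22). Against WT replicates 4 to 6 and 7 to 9, these differences were -3.86 and -2.90 for Plat and -4.00 and -2.60 for Il23a. Egr1 followed at -2.72 ± 0.2 (adjusted p = 1.94e-20), the chemokine gene Ccl22 at -2.62 ± 0.21 and Tagap, a GTPase-activating protein gene, at -2.38 ± 0.13. Plat and Il23a were called higher in both genotypes, while Egr1, Ccl22 and Tagap were called in WT (3.41, 3.18 and 2.69) and not in the mutant (0.69, 0.57 and 0.31). In all, 22 of the 58 genes were not called higher in the mutant at 1 h, and 5 of the 58 were not past the adjusted p there. Genes of surface receptors and adhesion molecules were also among the 58, with Sele (E-selectin) at -1.85, Olr1 (an oxidized LDL receptor) at -1.71 and Vcam1 at -1.54, and so was the OX40 ligand gene Tnfsf4 at -1.99.

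By list, 7 of 28 immediate early genes, 4 of 14 ERK feedback genes, 9 of 22 cytokine genes, 3 of 29 receptor genes, 2 of 19 chemokine genes, 1 of 14 mRNA decay and signalling inhibitor genes and 1 of 24 growth regulator genes had a response called lower than in WT, against 0.485% of all genes. In the NF-kB, cell survival, TLR4 to ERK, interferon-stimulated and macrophage identity lists, 0 of 22, 0 of 20, 0 of 25, 0 of 29 and 0 of 19 were called lower, and 6, 9, 4, 0 and 1 were lower by limma's adjusted p alone, by which 515 (4.30%) of all genes were lower and 212 (1.77%) higher. By the adjusted p alone 17 of the 28 immediate early, 7 of the 14 feedback, 10 of the 22 cytokine and 7 of the 29 receptor genes were lower. So were 3 of the 19 chemokine, 7 of the 14 inhibitor and 4 of the 24 growth regulator genes. By the same measure 4 of the 20 cell survival genes were higher. The immediate early, NF-kB, cytokine and growth regulator lists had 2 higher genes each. The TLR4 to ERK, chemokine, inhibitor and receptor lists had 1 each. Beside Egr1, the immediate early genes called lower were Egr3 (-1.82), Fosb (-1.69), Nr4a1 (-1.53), Fos (-1.16), Nr4a3 (-1.13) and Ier3 (-1.09). The feedback genes were Dusp2 (-2.19), Spry1 (-1.68), Errfi1 (-1.45) and Dusp5 (-1.30). The cytokine genes beside Csf2 and Il23a were Lif (-2.18), Clcf1 (-2.09), Il1a (-1.57), Hbegf (-1.29), Il1b (-1.17), Il10 (-1.14) and Il6 (-1.05). In the NF-kB list the lowest difference from WT was that of Nfkbid, at -0.86, and the median was -0.06.

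Several of these genes still rose strongly in the mutant. Il1b rose by 4.98 in the mutant and 6.15 in WT, Il1a by 4.51 and 6.08, Ptgs2 by 3.63 and 5.29, Socs3 by 4.05 and 5.13, and Errfi1 by 3.21 and 4.66. For Csrnp1, Nfkbiz, Cxcl2 and Tnf, the responses were 3.85, 4.39, 5.22 and 4.44 in the mutant and 3.86, 4.49, 5.35 and 4.72 in WT. Their differences were -0.01 ± 0.13, -0.10 ± 0.11, -0.13 ± 0.12 and -0.28 ± 0.11 (SE; adjusted p = 0.985, 0.726, 0.634 and 0.146), which does not show that they were equal. The lower response of Il6 depended on the setting, with an adjusted p of 0.00577 as given, 0.0537 with the replicate number as a block and 0.0912 with the compared groups alone. It was -0.96 without 1 h replicate 2, -0.97 without 1 h replicate 3, and -1.67 and -0.43 against WT replicates 4 to 6 and 7 to 9.

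The 7 genes with a higher response than in WT were led by Ifnb1, at 2.94 ± 0.35 (adjusted p = 1.06e-10). In WT cells Ifnb1 was at 4.44 to 4.74 (median 4.61) without LPS and 7.51 to 8.40 (median 7.94) at 1 h, so all 6 mutant libraries at 1 h were above all 6 WT libraries. Against WT replicates 4 to 6 and 7 to 9 the difference was 2.73 and 3.15. The other type I interferon genes called, Ifna2 and Ifna5, were called higher by 1.51 and 1.25 in the mutant and differed by 0.12 and 0.14 in WT, and they belong to a family of near-identical copies. Against WT replicates 4 to 6 alone the differences of the responses were 1.42 (adjusted p = 0.0538) for Ifna2 and 0.97 (adjusted p = 0.106) for Ifna5, beside 1.39 and 1.11 against all 6, and that of Ifna2 against replicates 7 to 9 alone was 1.37 (adjusted p = 0.119). The call of Ifna2 was thus lost against either set with a difference of about the same size, and that of Ifna5 was lost against the first and kept against the second.

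The remaining genes with a higher response were Rhov at 1.28, the metalloprotease gene Adamts1 at 1.24, the kinase gene Sgk1 at 1.03 and H2-K2, which resembles other MHC class I genes, at 1.02. Rhov differed by 0.04 in the mutant and fell by 1.24 in WT. Adamts1 rose by 2.00 in the mutant and differed by 0.77 in WT. Its untreated libraries were at 4.64 to 5.50 in the mutant and 3.89 to 4.51 in WT, without overlap. The call of Adamts1 was lost against WT replicates 4 to 6 alone (1.01; limma, adjusted p = 0.181). The calls of Sgk1 (0.97) and H2-K2 (0.87) were lost against WT replicates 7 to 9 alone. That of Sgk1 was also lost under quantile normalization (0.99) and without 1 h replicate 6 (1.00), that of H2-K2 without 1 h replicate 2 (0.98) or 3 (1.00), and that of Ifna5 without 1 h replicate 4 (0.96).

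Set against Map3k8[D270A] cells, the mutant had 38 genes (0.317%) called, 30 (0.251%) with a lower and 8 (0.0668%) with a higher 1 h response. This comparison shares the Nfkb1[SS/AA] libraries with that to WT, so the genes are given by their own values. Csf2 rose by 3.69 in Map3k8[D270A] cells, from 3.19 to 3.40 (median 3.29) to 6.75 to 7.10 (median 7.04), and its response in the mutant was lower by 3.19 (-3.19 ± 0.23; adjusted p = 1.03e-21). Plat, Adm, which encodes adrenomedullin, and Tagap rose by 3.68, 2.99 and 2.44 there, and the responses differed by -2.54, -2.22 and -2.12. The stimulated libraries of Map3k8[D270A] cells were above those of Nfkb1[SS/AA] cells for Csf2 in every replicate. Egr1 differed by 0.00 at 1 h in Map3k8[D270A] cells, where it was at 7.78 to 8.45 (median 8.17), against 8.16 to 8.59 (median 8.29) in the mutant.

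On the higher side, Ifnb1 rose by 4.60 in Map3k8[D270A] cells, from 4.54 to 4.76 (median 4.59) to 8.72 to 9.63 (median 9.21), and its response in the mutant was higher by 1.68 ± 0.35 (adjusted p = 0.000326). Against the first 3 and the last 3 Map3k8[D270A] replicates alone, this difference was 1.55 and 1.81 (limma, adjusted p = 0.0495 and 0.0201). The 1 h responses of Ifnb1 in Nfkb1[SS/AA], Map3k8[D270A] and WT cells were 6.28, 4.60 and 3.34. The difference between Map3k8[D270A] and WT was not tested. Hcar2, a receptor gene for beta-hydroxybutyrate and niacin, rose by 1.89 in the mutant and differed by 0.30 in Map3k8[D270A] cells (difference 1.59 ± 0.2, adjusted p = 1.68e-09). The protease inhibitor gene Serpinb2 had responses of 2.57 and 1.03 (1.54 ± 0.19) and the transcription factor gene Ets2 of 2.25 and 0.88 (1.37 ± 0.11). In WT cells the responses of Hcar2 and Serpinb2 were 1.59 and 2.81, and the test of their difference from the mutant gave adjusted p = 0.487 and 0.573. Adamts1, Ifna2, Osm and Tnfsf14 completed the 8 genes, at 1.15, 1.13, 1.06 and 1.02.

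**Figure D5:**
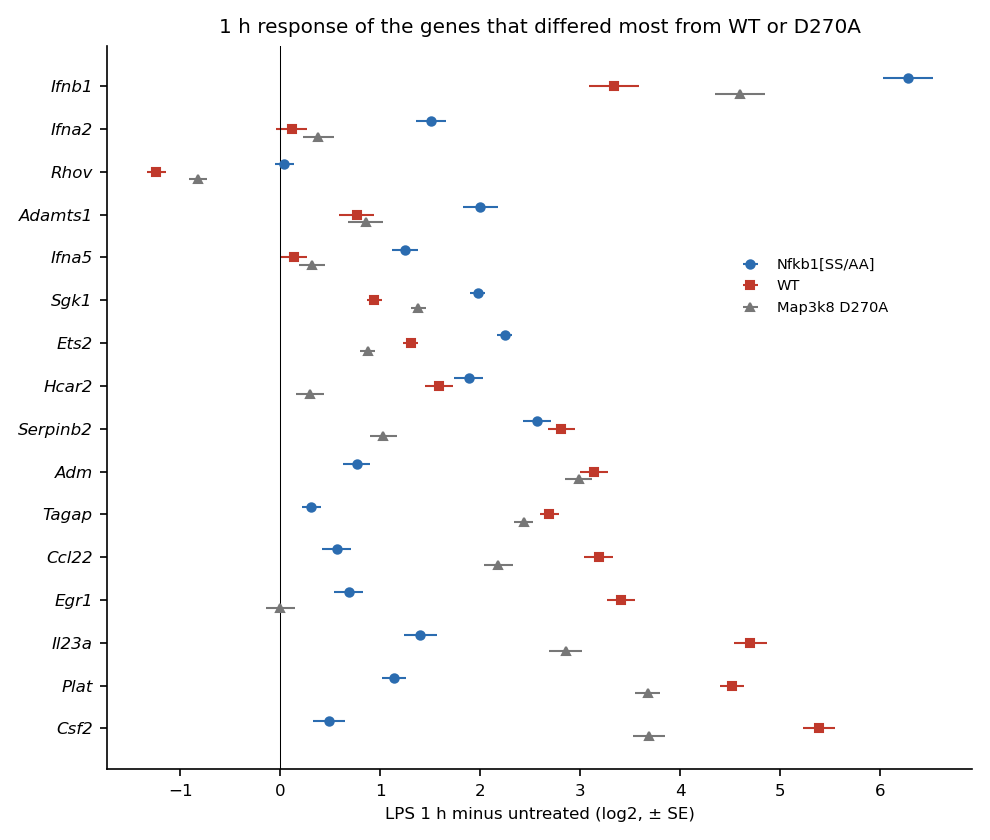
Difference between LPS 1 h and untreated libraries on the log2 scale (horizontal axis; points, with bars of 1 SE) in Nfkb1[SS/AA], WT and Map3k8[D270A] cells for 16 genes (rows). Ifnb1 is highest in the mutant (6.28 against 3.34 in WT and 4.60 in Map3k8[D270A]) and Csf2 lowest (0.49 against 5.39 and 3.69).

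The promoter windows of the genes called were searched for the 5 motifs on both strands. RefSeq gave a window for 253 of the 313 higher genes, 91 of the 116 lower genes and 9583 of all genes tested. The kappaB core, shown above in Cxcl1, Cxcl2 and Nfkbia, was found in 17 windows of higher genes (6.72%), 3 of lower genes (3.3%) and 1.68% of those of all genes tested. The interferon response element core was found in 7.91%, 2.2% and 3.23%, the AP-1 site in 9.88%, 5.49% and 4.97%, the cAMP response element in 4.74%, 3.3% and 3.33%, and the CArG box, to which serum response factor binds, in 1.19%, 1.1% and 1.24%. Over all 27025 windows of the genome the shares were 1.63%, 3.49%, 7.92%, 1.85% and 1.59% in the same order. These shares describe the letters in the windows and were not tested.

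Pira1, of the paired immunoglobulin-like receptors, was called at 2.99, but its libraries disagreed. At 1 h it was at 8.12, 8.05 and 7.54 in replicates 2, 5 and 6 and at 1.88 to 1.96 in the other 3, the level of the untreated libraries. The exact permutation test gave p = 0.0693 (2-sided), and the call was lost in limma with the compared groups alone (adjusted p = 0.0662). It belongs to a family of near-identical genes whose reads may have been split, which was not tested.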

How the data were processed

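RNA of BMDMs was sequenced in 119 libraries, 18 of them of Nfkb1[SS/AA] cells. The cells were grown from bone marrow in L-cell conditioned medium, kept overnight in low-serum medium and then left untreated or given LPS. The submitters' processing notes name STAR 2.5.1b, RSEM 1.2.29, DESeq2 1.10.1 and mm10. The deposited table holds normalized log2 values made by the authors from read counts across all libraries, and no label or file header names the transformation, so differences may be shrunken or on another log base. Values ran from -2.4 to 19.81, and 1 value of 57.73 (Fosb, a library with the RSK inhibitor) was set to missing. Counts were not used, so no count test was run and the depth of each library is unknown.

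The 11971 of 18098 genes that reached 10 on the linear scale in 3 or more libraries were kept. limma 3.58.1 in R 4.3.3 was fitted to all 119 libraries with a mean per group, and p-values were adjusted by Benjamini-Hochberg over all genes tested. The fit was tested on simulated data with independent libraries, equal spread in all groups and changes well past the threshold. That does not test calls near the threshold, paired replicates or a library that stands apart. Single genes were also compared by an exact 2-sided permutation test over the 924 arrangements of 6 and 6 libraries, whose smallest p is 0.00216. Positions and promoters came from RefSeq (GRCm38.p6), with 11472 genes matched by symbol, 456 by synonym and 43 not found. Figures used Python 3.11.15 and matplotlib 3.10.9.

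The groups, the gene lists and the tests were chosen with earlier results of these data known. Genes were named by rule: the 12 largest rises and the 12 largest falls at 1 h without overlapping libraries; in each list the 3 largest differences, the smallest and a few fixed genes; the 6 most negative and 6 most positive differences from WT, and 4 of each from Map3k8[D270A]; and the 5 largest further rises and falls between 0.5 and 1 h. Other genes were named after their values were seen. Replicates with the same number at different times deviated together (r = 0.14 to 0.52 between untreated and 1 h libraries, in all 6 pairs over 0.1, although replicates 2 and 5 correlated slightly more with another number, at 0.22 and 0.15, than with their own, at 0.20 and 0.14), so the number was taken to pair them, on the data and not on the labels, and a fit with the replicate number as a block was run. Alternatives were other sets of libraries, filters, normalizations, thresholds and prior variances, and leaving out each Nfkb1[SS/AA] library. Some genes of the lists are not reported here by name.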

Additional observations from a re-analysis of the deposited data

Results flagged for a closer look

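Values of a single library that stood far from the other 5 of its group, by Dixon's test for 6 samples, were found in 17 of 330 groups of 165 genes (5.15%), and chance gives about 1 in 20. Of these 17, 9 were in 1 h libraries and 6 of the 9 were replicate 2 at 1 h, the library whose deviations followed transcript length. These 6 were Cflar at 13.63, Cyld at 10.21, Klf6 at 14.91, Rel at 10.09, Tnfaip3 at 14.94 and Zc3h12c at 11.34. The other 1 h values were Errfi1 in replicate 1 at 12.11, Ccl17 in replicate 4 at 1.93 and Oasl1 in replicate 4 at 11.16. Among the untreated libraries, replicate 4 stood apart for Bcl2l11 at 12.05, Id3 at 7.75 and Nfkb1 at 11.52, replicate 3 for Cnr2 at 9.84 and Mcm3 at 10.61, replicate 1 for Map3k8 at 9.15 and Rplp2-ps1 at 4.64, and replicate 5 for Ccl17 at 1.93. No cause was tested.

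By limma's test of the difference itself, the 1 h response was lower in Nfkb1[SS/AA] than in WT cells for Csf2 (-4.90), Plat (-3.38), Il23a (-3.30), Egr1 (-2.72), Ccl22 (-2.62) and Tagap (-2.38). It was higher for Ifnb1 (2.94), Ifna2 (1.39), Rhov (1.28), Adamts1 (1.24), Ifna5 (1.11) and Sgk1 (1.03). Against Map3k8[D270A] cells the response was lower for Csf2 (-3.19), Plat (-2.54), Adm (-2.22) and Tagap (-2.12) and higher for Ifnb1 (1.68), Hcar2 (1.59), Serpinb2 (1.54) and Ets2 (1.37). Genotype and experiment cannot be told apart in these differences.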

How the results depend on the processing

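The deposited log2 values carry no depth, so how far low values can be trusted is unknown. By the adjusted p alone, genes higher and lower numbered 2695 and 2616 at 1 h, 1024 and 727 at 0.5 h, 2613 and 2488 between 0.5 and 1 h, 212 and 515 for the response against WT, and 266 and 505 against Map3k8[D270A]. With a threshold of 0.693, the natural logarithm of 2, 466 genes were higher and 301 lower at 1 h, 137 higher and 21 lower at 0.5 h, 301 higher and 218 lower between 0.5 and 1 h, 13 higher and 118 lower than WT, and 28 higher and 62 lower than Map3k8[D270A]. Leaving out libraries gave 307 to 326 genes higher and 109 to 127 lower at 1 h, 84 to 92 and 0 to 7 at 0.5 h, 171 to 189 and 61 to 71 between 0.5 and 1 h, 6 to 9 and 56 to 60 against WT, and 7 to 11 and 27 to 31 against Map3k8[D270A]. The count lower at 0.5 h was 1 as given, 2 under quantile normalization and 3 with libraries centred on their medians. Against WT replicates 4 to 6 alone, 4 genes were higher and 84 lower, and against WT replicates 7 to 9 alone 6 and 43; the cause was not tested. Quantile normalization moved the median 1 h difference by -0.0415, gave 300 higher and 93 lower genes, and turned Mapk3 to -0.19, Rplp0 to -0.20 and Ywhaz to -0.0845; Atf3 (0.92), Insig1 (0.85), Irak2 (0.997), Mki67 (0.89), Myc (0.94), Rsad2 (0.99) and Zfp74 (-0.93) then lay under the threshold. With the replicate number as a block, 312 genes were higher and 117 lower at 1 h, 7 and 58 differed from WT and 8 and 28 from Map3k8[D270A], and a call of a gene named here was lost in the blocked fits for Il6 against WT alone (adjusted p = 0.0537), a call also lost in the same libraries without the block (0.0912).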
